A study of Mus musculus with 6 samples.

Results

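The proteasome is the barrel-shaped protease that degrades ubiquitin-tagged proteins, and its subunits are encoded by the Psma, Psmb, Psmc and Psmd gene families. These genes were compared between Gpx4 knockout and control keratinocytes of newborn mice. Probe sets were taken whose single annotated symbol begins with Psma, Psmb, Psmc or Psmd followed by a digit. They measured 40 genes on 80 probe sets, out of 18193 genes and 45037 probe sets tested. Each gene was followed on the probe set with the highest mean over the 6 arrays. Of the 40 genes, 31 encode constitutive subunits and 3, Psmb8, Psmb9 and Psmb10, encode the immunoproteasome subunits. The other 6 were Psmd5, Psmd9 and Psmd10, chaperones that assemble the regulatory particle, Psma8 and Psmb11, subunits used in testis and thymus, and Psmc3ip, which shares the prefix but is not a subunit.

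The 3 knockout samples were pools of primary keratinocytes in which Gpx4 had been removed by K14-cre, a recombinase expressed from the promoter of keratin 14, a protein of basal keratinocytes. The 3 control samples were pools of keratinocytes labelled only as control. Each litter, A, B and C, gave 1 knockout and 1 control pool. All samples came from a mixed C57BL6/FVB background, and all media contained 100 nM sodium selenite. Gpx4 encodes a selenoprotein that detoxifies peroxidised membrane lipids.

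The proteasome core, the 20S particle, is built of rings of alpha subunits, which form the gate, and rings of beta subunits, of which Psmb5, Psmb6 and Psmb7 carry the catalytic sites. Interferon induces Psmb8, Psmb9 and Psmb10, which take the places of Psmb5, Psmb6 and Psmb7 in newly assembled particles and change the peptides made for antigen presentation. The 19S regulatory particle caps the core. Its ATPases, Psmc1 to Psmc6, unfold substrates, and its non-ATPase Psmd subunits bind ubiquitin chains, remove them and hold the lid together. When proteasome activity falls, the membrane-bound factor Nfe2l1 is processed and switches on the constitutive subunit genes together with small Maf proteins.

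Upstream sequences are shown for the catalytic genes of both kinds, since their response to genotype is contrasted. The windows are the 250 bases before the annotated start in RefSeq, build GRCm38.p6, given 5′ to 3′ on the gene's strand. Windows were found for 33 of the 40 genes, and for the exchanged pairs Psmb8 with Psmb5 and Psmb9 with Psmb6. Capitals mark matches on either strand to 4 motifs. These were CCAAT, TGACNNNGC, which are letters of the antioxidant response element read by Nfe2l factors with small Mafs, GAAANNGAA from the interferon response element, and GGGCGG from the Sp1 site. No matches overlapped in these 4 windows.
Psmb8, chr17:34197945-34198194, plus strand: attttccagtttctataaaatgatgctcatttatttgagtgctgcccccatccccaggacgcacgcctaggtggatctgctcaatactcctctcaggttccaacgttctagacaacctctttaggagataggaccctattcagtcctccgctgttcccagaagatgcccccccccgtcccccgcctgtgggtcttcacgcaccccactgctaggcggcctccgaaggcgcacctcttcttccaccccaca
Psmb5, chr14:54617996-54618245, minus strand: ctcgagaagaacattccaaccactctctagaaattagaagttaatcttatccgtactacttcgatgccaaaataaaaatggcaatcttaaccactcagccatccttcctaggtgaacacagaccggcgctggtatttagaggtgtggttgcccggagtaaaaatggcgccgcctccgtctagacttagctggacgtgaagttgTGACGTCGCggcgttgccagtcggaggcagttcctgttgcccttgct
Psmb9, chr17:34187331-34187580, minus strand: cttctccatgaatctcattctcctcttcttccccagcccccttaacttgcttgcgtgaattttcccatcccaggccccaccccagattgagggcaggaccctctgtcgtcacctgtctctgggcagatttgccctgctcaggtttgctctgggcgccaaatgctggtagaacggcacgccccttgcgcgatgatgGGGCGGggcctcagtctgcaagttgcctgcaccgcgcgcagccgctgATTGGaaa
Psmb6, chr11:70525107-70525356, plus strand: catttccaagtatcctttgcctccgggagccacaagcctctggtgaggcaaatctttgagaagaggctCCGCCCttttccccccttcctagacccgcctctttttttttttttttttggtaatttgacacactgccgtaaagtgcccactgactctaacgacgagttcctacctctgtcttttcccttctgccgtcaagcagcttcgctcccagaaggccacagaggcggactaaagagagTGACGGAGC

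The Psmb8 window held 0 matches to these motifs. The Psmb5 and Psmb6 windows each held 1 TGACNNNGC match, beginning 47 and 9 bases before the start. The Psmb9 window held 1 CCAAT match on the opposite strand and 1 GGGCGG match. It is read away from Tap1, a peptide transporter gene on the other strand whose start lies 226 bases from that of Psmb9. Among the 25 constitutive genes with a window, TGACNNNGC was present in 4 (16%), namely Psmb5, Psmb6, Psmc6 and Psmd12, against 10.2% of all 32851 windows. CCAAT was present in 10 of 25 (40%) against 33.8% of all windows, and GGGCGG in 14 of 25 (56%) against 32.7%. GAAANNGAA stood in 2 of 25 constitutive windows (8%) against 7.13% of all. Of the 3 immunoproteasome windows, 1 held CCAAT, 1 held GGGCGG and 0 held TGACNNNGC or GAAANNGAA. These matches describe letters and were not tested as binding sites.

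Gene expression was measured on 1-colour Affymetrix arrays. Values are linear intensities, quantile-normalized between arrays, and changes are knockout minus control on the scale log2(intensity + 16), fitted with litter as a block in limma. Before normalization the mean intensity of an array, trimmed by 2% at each end, was 73.4 to 92.0 in knockouts and 72.8 to 114.3 in controls, and the control array of litter C was the brightest. Gpx4 was at 212.0, 259.7 and 216.1 in knockouts of litters A, B and C and at 496.9, 550.9 and 535.7 in controls, a log2 change of −1.15 ± 0.09 (SE, limma adjusted p = 0.021). The sources used here do not say whether its probes lie in the deleted part. The threshold, an adjusted p of 0.05, was met by 113 of all genes (0.621%), with 0.22% higher in knockouts and 0.401% lower. The keratinocyte markers Krt5 and Krt14 were bright on all arrays, and the summed level of 7 keratinocyte markers was 16544 to 16956 in knockouts and 16562 to 18638 in controls. Within that list the differentiation keratin Krt10 fell, at 215, 252 and 284 in knockouts and 590.4, 737 and 760.4 in controls, a log2 change of −1.42 ± 0.084 (limma adjusted p = 0.0092). Krt1, its partner keratin, and Trp63, a basal transcription factor, were lower in the knockout of each litter without passing, at −1.21 and −0.43 (adjusted p = 0.084 and 0.082). The summed level of 7 melanocyte markers was 6326 to 6951 in knockouts and 4562 to 4723 in controls. That of 7 fibroblast markers was 1236 to 1536 in knockouts and 351 to 1060 in controls. Vim made up most of the fibroblast sum, at 947, 836 and 1038 in knockouts and 225, 196 and 616 in controls. Col1a1, Col1a2, Col3a1 and Pdgfra also had changes above 0, while Dcn (−0.059) and Lum (−0.29) were below 0. Of the 7 fibroblast markers 0 passed the test. The Y-linked gene Eif2s3y was at 0.667 to 4.62 in knockouts and 155 to 185 in controls. Kdm5d and Uty, also Y-linked, reached at most 3.28 and 3.57 in knockouts and at least 48.4 and 43.3 in controls. The labels do not give the sex of the pooled pups. Since the Y-linked signal differed with genotype in every litter, the parts of sex and of Gpx4 loss in the values that follow cannot be told apart. The part of cell makeup was not tested, and in pooled cells fewer cells of a type and less RNA per cell cannot be told apart.

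No proteasome gene passed the test between knockout and control keratinocytes. The limma test called 0 of the 40 genes and 0 of their 80 probe sets. The shares called among all genes and all probe sets were 0.621% and 0.42%. A count of 0 among 40 genes is near these shares, and a lack of calls does not show that a gene was unchanged. The smallest adjusted p of the 40 genes was 0.229, for Psmb1. At an unadjusted p under 0.05, 2 of the 40 (5%) were lower in knockouts and 0 were higher, against 18.1% of all genes in either direction. Knockout and control arrays did not overlap for 7 of the 40 genes (17.5%), against 20.6% of all genes. The sign was the same in all 3 litters for 11 of 40 (27.5%), against 39.4% of all genes.

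The constitutive subunits lay within a narrow range. Their 31 log2 changes had a median of 0.012 and an SD of 0.095, and ran from −0.24 for Psmb1 to 0.22 for Psmc6, while the changes of all 18193 genes had a median of 0 and an SD of 0.30. The 95% confidence intervals of the 31 genes, taken singly, reached at the extremes −0.43 for Psmd8 and 0.47 for Psmc6. No interval therefore extended past 1.35-fold lower or 1.39-fold higher in knockouts. The median SD over the arrays of a group was 0.061 in knockouts and 0.066 in controls on the log2 scale, against 0.14 and 0.17 for all genes, which include many dim ones.

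**Figure D1:**
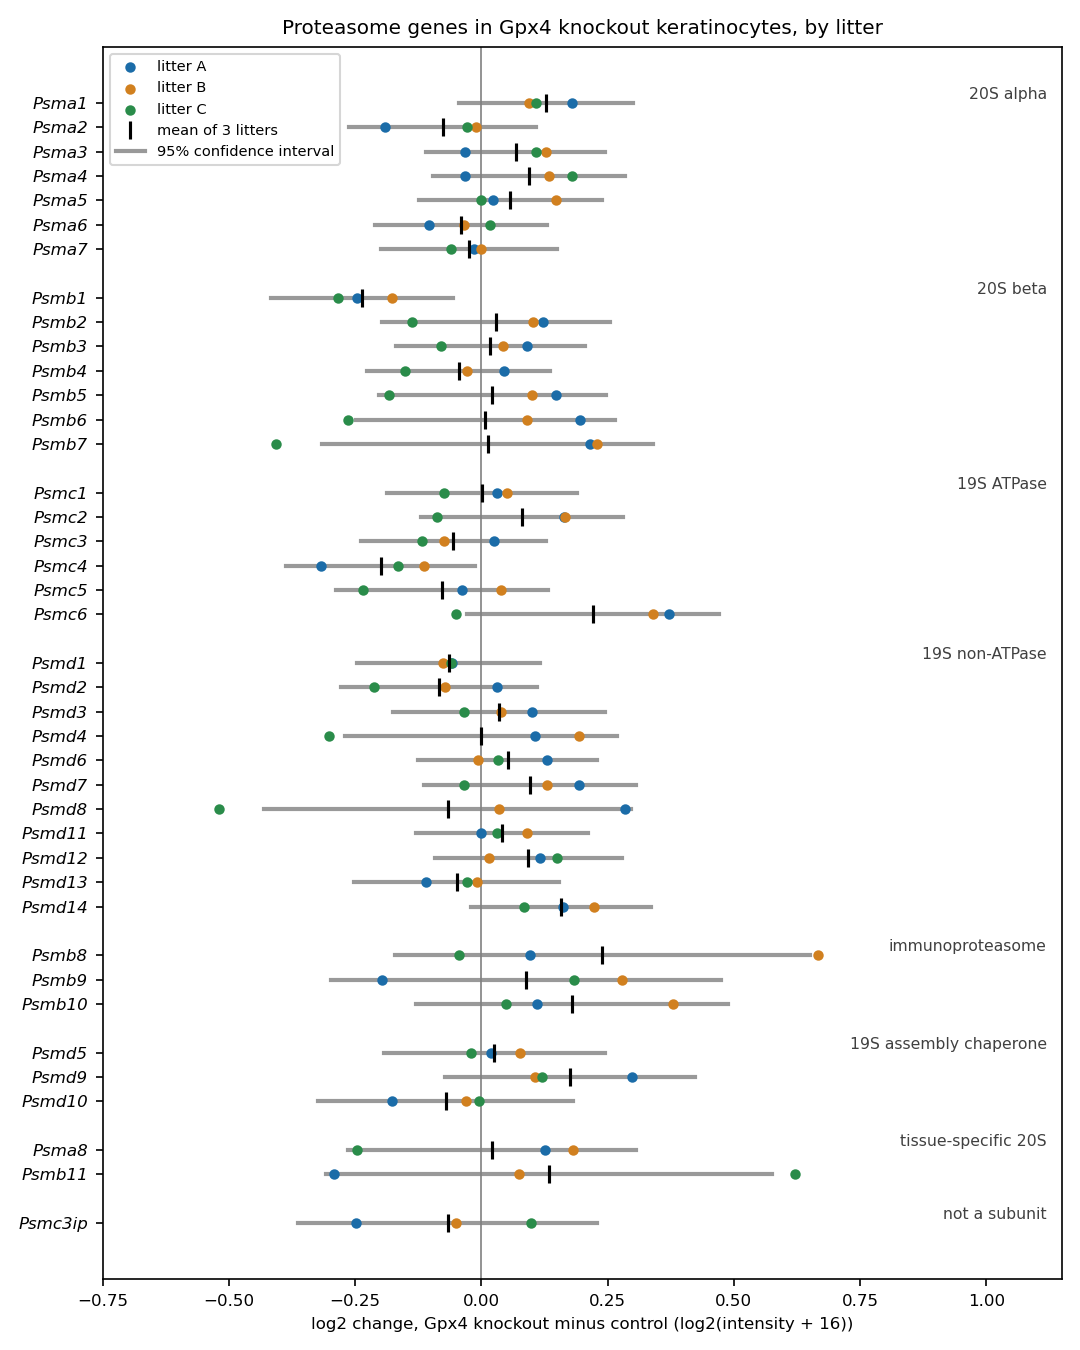
Log2 change (knockout minus control, log2(intensity + 16), horizontal axis) of each of the 40 genes, grouped by class. Coloured points are litters A, B and C, black ticks the mean of the 3 litters and grey bars the 95% confidence interval of limma; the constitutive means lie between −0.24 and 0.22, and the litter C points lie left of zero for all 7 beta subunits and all 6 ATPases.

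The alpha subunits, which form the outer rings and the gate of the core, had a median change of 0.057 over 7 genes, 4 above and 3 below 0. Psma1 was the highest of them. It was at 1613, 1524 and 1481 in knockouts of litters A, B and C and at 1422, 1427 and 1372 in controls. The groups did not overlap, and the change of 0.13 ± 0.07 (SE) did not pass the test (limma adjusted p = 0.474). Psma2, the lowest, was at 1448, 1562 and 1596 in knockouts and 1655, 1574 and 1627 in controls, with a change of −0.076 ± 0.077. Its groups overlapped, and most of the difference lay in litter A, where the change was −0.19.

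The 7 constitutive beta subunits had a median change of 0.012, 5 above and 2 below 0. Psmb1, a non-catalytic subunit of the beta ring, had the smallest unadjusted p of all 40 genes (0.018). It was at 910, 988 and 884 in knockouts and at 1083, 1119 and 1080 in controls. Every knockout array lay below every control array, and the litter changes were −0.25, −0.18 and −0.28. The change of −0.24 ± 0.075 (SE, 95% confidence interval −0.42 to −0.056) did not pass adjustment over all probe sets (limma adjusted p = 0.229). A much dimmer Psmb1 probe set ran the other way, at 32.9, 51.0 and 52.9 in knockouts and 8.32, 34.6 and 28.7 in controls, with a change of 0.68 and an adjusted p of 0.167. Psmb2, the highest of the class, had a change of 0.029 ± 0.093, with 507, 443 and 432 in knockouts and 465, 411 and 477 in controls.

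The catalytic Psmb5, Psmb6 and Psmb7 had mean changes close to 0 that joined opposite values in different litters. Psmb5, the chymotrypsin-like site, was at 932, 943 and 918 in knockouts and 839, 879 and 1045 in controls. Psmb6, the caspase-like site, was at 998, 1027 and 961 in knockouts and 869, 963 and 1157 in controls. Psmb7, the trypsin-like site, was at 1677, 1793 and 1704 in knockouts and 1442, 1527 and 2265 in controls. For all 3 genes the control array of litter C was the highest of the 6 arrays, and the knockout arrays were nearly level. The knockout SD was 12.2, 32.8 and 61.0 for Psmb5, Psmb6 and Psmb7, against control SDs of 109, 147 and 453. The mean changes were 0.021 ± 0.093, 0.0075 ± 0.107 and 0.012 ± 0.136 (SE, limma adjusted p = 0.948, 0.987 and 0.982). Within litters the change of Psmb7 was 0.21 for A, 0.23 for B and −0.41 for C.

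**Figure D2:**
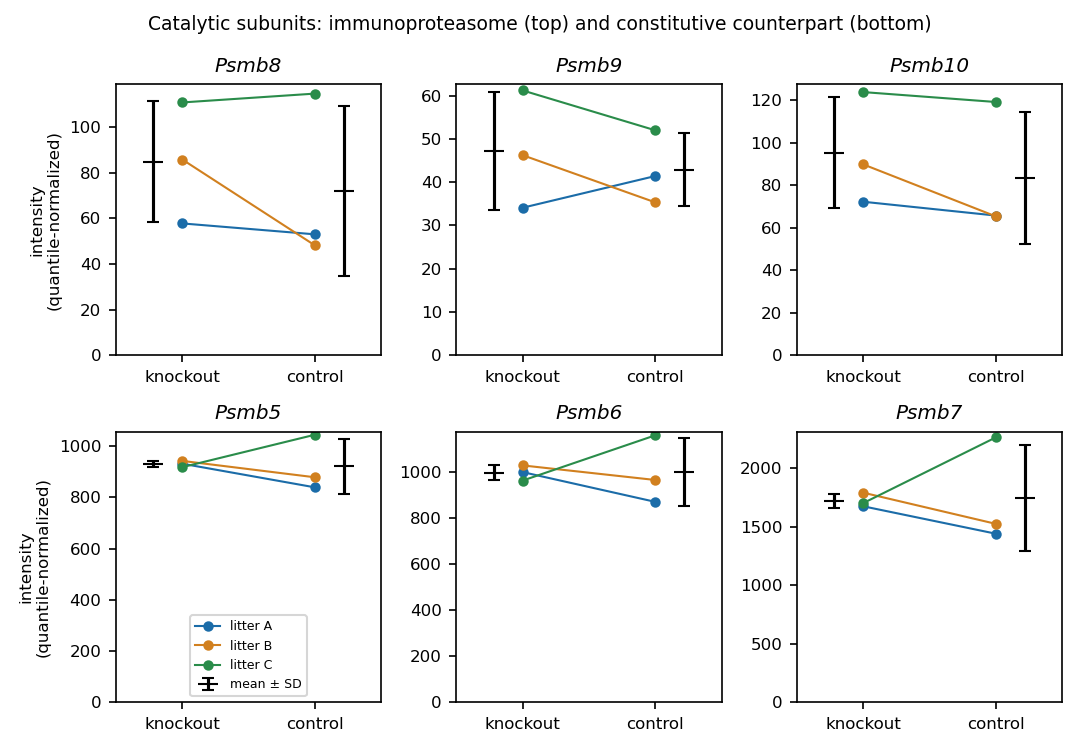
Quantile-normalized intensity of the immunoproteasome subunits (top row) above the constitutive counterpart each replaces (bottom row), knockout at the left and control at the right of each panel. Lines join the pools of a litter and black bars give the mean ± SD of 3 arrays; the immunoproteasome genes are highest on the litter C arrays of both genotypes, and the constitutive genes on the control array of litter C alone.

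The immunoproteasome subunits were dim, did not pass the test, and were high in both genotypes of litter C. Psmb8, which replaces Psmb5, was at 57.8, 85.8 and 110.8 in knockouts of litters A, B and C and at 53.0, 48.2 and 114.7 in controls. Psmb9, which replaces Psmb6, was at 34.1, 46.2 and 61.2 in knockouts and 41.4, 35.3 and 52.0 in controls. Psmb10, which replaces Psmb7, was at 72.2, 89.8 and 123.8 in knockouts and 65.7, 65.3 and 119.1 in controls. The groups overlapped for all 3 genes, and in each genotype the litter C array was the highest. Their median SD over arrays was 0.33 in knockouts and 0.42 in controls on the log2 scale. The changes were 0.24 ± 0.17 for Psmb8, 0.088 ± 0.16 for Psmb9 and 0.18 ± 0.13 for Psmb10 (SE, limma adjusted p = 0.582, 0.857 and 0.584). The 95% confidence interval of Psmb8, −0.17 to 0.65, was the widest of the 3 and reached 1.57-fold higher in knockouts. Psmb10 was higher in the knockout of every litter, by 0.11, 0.38 and 0.049, while Psmb8 and Psmb9 each changed sign between litters.

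The contrast between the 3 immunoproteasome genes and their counterparts was smaller than its spread over litters. The mean change of the immunoproteasome genes was 0.17, and their mean excess over Psmb5, Psmb6 and Psmb7 was 0.16 with an SD over litters of 0.29 (n = 3). By litter the excess was −0.18 for A, 0.30 for B and 0.35 for C. By pair it was 0.22 for Psmb8 over Psmb5, 0.081 for Psmb9 over Psmb6 and 0.17 for Psmb10 over Psmb7, each positive in 2 of 3 litters. In litter B it came from higher immunoproteasome genes in the knockout. In litter C it came mainly from Psmb5, Psmb6 and Psmb7, which were high on that litter's control array while the knockout arrays were nearly level. Markers of immune cells, which express the immunoproteasome constitutively, summed over 13 genes to 123, 172 and 218 in knockouts and 157, 123 and 185 in controls. They too were highest on the litter C array of each genotype, 9 of the 13 averaged under 16, and 0 passed the test. Ptprc, their defining gene, was at 5.65 to 15.7 in knockouts and 2.32 to 9.02 in controls. The changes of the 13 markers had a median of 0.085 and ran from −0.74 for H2-Ab1 to 0.58 for Cd74. Tyrobp and H2-Aa were also below 0, and the others above it. H2-Ab1 was at 5.43 to 14.9 in knockouts and 23.3 to 35.8 in controls. The part of immune cells in the immunoproteasome signal was not tested.

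The 6 ATPases of the base had a median change of −0.027, with 3 above and 3 below 0, and held both the highest constitutive change and the second gene at an unadjusted p under 0.05. Psmc6 was at 1552, 1534 and 1371 in knockouts and 1196, 1208 and 1420 in controls. The knockout was well above the control in litters A and B and slightly below it in litter C, by 0.37, 0.34 and −0.051. The mean change was 0.22 ± 0.10 (SE, limma adjusted p = 0.394). Without litter C, Psmc6 was the only member that passed, with a change of 0.36 (limma adjusted p = 0.036), in a fit that called 8.71% of all genes. A dimmer Psmc6 probe set was at 125, 121 and 98.3 in knockouts and 80.4, 95.4 and 60.2 in controls. It stood at 6.79% of the mean intensity of the chosen one. It was higher in the knockout of all 3 litters, by 0.48 on average, and had the smallest adjusted p of the 80 probe sets (0.163). Another Psmc6 probe set, at 32.2% of the chosen level, changed by 0.14 ± 0.092 (SE, limma adjusted p = 0.562). Its litter changes were 0.084, 0.035 and 0.29. Both of these probe sets were thus positive in litter C, where the chosen one was at −0.051. Psmc4 was at 1528, 1474 and 1427 in knockouts and 1908, 1596 and 1603 in controls. Its groups did not overlap, and the change of −0.20 ± 0.078 (SE, unadjusted p = 0.040, limma adjusted p = 0.315) was negative in all 3 litters. A second Psmc4 probe set, at 42.7% of the mean intensity of the chosen one, was nearly level. Its change was −0.016 ± 0.077 (SE, limma adjusted p = 0.953), with litter changes of −0.013, 0 and −0.034.

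The 11 non-ATPase subunits had a median change of 0.034, 6 above and 5 below 0. Psmd14, the deubiquitinase that removes chains before degradation, was the highest. It was at 1452, 1489 and 1461 in knockouts and at 1296, 1272 and 1376 in controls, and the groups did not overlap. Its change was 0.16 ± 0.074 (SE, limma adjusted p = 0.396). Psmd2, a large scaffold of the base, was the lowest, at 1209, 1365 and 1388 in knockouts and 1183, 1435 and 1610 in controls, with a change of −0.084 ± 0.081. Psmd1, the other large scaffold, and Psmd12, a lid subunit, also had groups that did not overlap, with changes of −0.065 ± 0.075 and 0.093 ± 0.077. Psmd8, a lid subunit, and Psmd4, a ubiquitin receptor, had means near 0 made of opposed litters. Psmd8 was at 1340, 1201 and 1020 in knockouts and 1097, 1172 and 1470 in controls, changes of 0.29, 0.034 and −0.52. Psmd4 was at 1020, 1142 and 936 in knockouts and 947, 997 and 1158 in controls, changes of 0.11, 0.19 and −0.30.

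None of the genes outside the constitutive and immunoproteasome sets passed the test, and Psma8 and Psmb11 were near the floor of the array. The assembly chaperone Psmd9 was at 194, 187 and 196 in knockouts and 155, 172 and 179 in controls. Its groups did not overlap, with a change of 0.18 ± 0.10 (SE, limma adjusted p = 0.492). Psmd5 had a change of 0.025 ± 0.091 and the X-linked Psmd10, also known as gankyrin, −0.071 ± 0.105. Psma8 ran from 1.40 to 6.62 in knockouts and 2.20 to 4.72 in controls, and Psmb11 reached at most 14.8 in knockouts and 7.32 in controls, intensities at which no change can be read. Psmc3ip, a recombination factor, ran from 94.4 to 107 in knockouts and 87.1 to 130 in controls.

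Much of the spread of the constitutive genes between litters lay in litter C. Their median change was 0.044 for litter A, 0.043 for B and −0.061 for C, and the knockout was the higher pool for 20, 20 and 8 of the 31 genes. In litter C, 7 of 7 beta subunits and 6 of 6 ATPases were lower in the knockout, with class medians of −0.18 and −0.10, while the alpha class had a median of 0.016. Measured from each gene's mean over the 6 arrays, the beta class stood at −0.0059, −0.017 and −0.034 in knockouts of litters A, B and C and at −0.11, −0.059 and 0.14 in controls. The control pools spanned the wider range. The control array of litter C was also the brightest before normalization. Its summed fibroblast marker signal, most of it from Vim, was 1060 against 370 and 351 in the other controls. The part of either in these values was not tested.

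The scaling changed on which side of 0 the constitutive genes lay. Quantile normalization gives every array the same distribution, so its changes are relative to all other transcripts. With the intensities as deposited, the median constitutive change was −0.16, 1 gene above and 30 below 0, and with arrays shifted to the same median it was −0.098, 4 above and 27 below. The medians of all genes were −0.087 and −0.028 under these scalings. The largest shift was in litter C, where the constitutive median was −0.68 as deposited and −0.51 after the median shift, against 0.13 and 0.16 for litter A and 0.091 and 0.070 for B. The mean change of the immunoproteasome genes was −0.020 as deposited and 0.040 after the median shift, and their excess over the counterparts was 0.13 under both. Under either scaling 0 of 40 genes passed the test, with smallest adjusted p-values of 0.666 and 0.544, where 0.0989% and 2.2% of all genes passed.

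**Figure D3:**
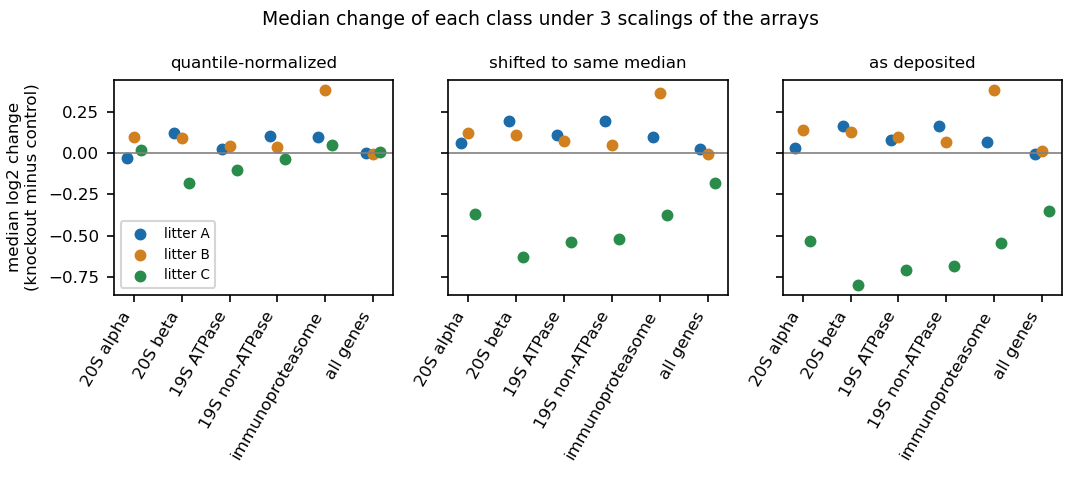
Median log2 change (knockout minus control, vertical axis) of each subunit class and of all genes, by litter, under 3 scalings of the arrays. The median over all constitutive genes together is not drawn. For litter A it is 0.044 with quantile normalization, 0.16 with equal medians and 0.13 as deposited. In the same order it is 0.043, 0.070 and 0.091 for litter B and −0.061, −0.51 and −0.68 for litter C.

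Second probe sets showed how far 1 gene's readings can differ on the same arrays. Of 40 further probe sets, 16 had the sign opposite to the chosen one. Among the 14 with a mean intensity of 100 or more, 6 did so, with changes of 0.051 against −0.041 for Psma6, 0.18 against −0.045 for Psmb4, −0.0054 against 0.081 for Psmc2, −0.061 against 0.040 for Psmd11, 0.11 against −0.049 for Psmd13 and 0.082 against −0.0012 for Psmd4. The other 10, all under 100, belonged to Psma5, Psma6, Psmb1, Psmd9, Psmd11 and Psmd13 and ran from −0.35 to 0.68. A second probe set of Psmd6, about as bright as the chosen one, was at 1635, 1586 and 1575 in knockouts and 1402, 1342 and 1340 in controls. Its change of 0.23 ± 0.070 was nearly equal in the 3 litters (limma adjusted p = 0.216), while the chosen probe set gave 0.052 ± 0.074.

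Among 56 measured related genes, Nfe2l3 alone passed the test, and it fell. These covered proteasome activators, assembly factors and regulators, ubiquitin and aggregate handling, and antigen processing with the interferon response. Nfe2l3 encodes a membrane-bound relative of Nfe2l1. It was at 260, 215 and 175 in knockouts of litters A, B and C and at 728, 681 and 359 in controls. All knockout arrays lay below all control arrays, and the litter changes were −1.43, −1.60 and −0.97. The change of −1.33 ± 0.13 (SE, 95% confidence interval −1.66 to −1.01, limma adjusted p = 0.032) was 2.52-fold lower, where 0.401% of all genes were called lower. The call was lost without litter A (adjusted p = 0.213), without litter B (0.386), without the litter block (0.090) and as deposited (0.062). It was also lost with a pseudocount of 64, by the mean of a gene's probe sets and without the intensity trend. The sign was kept in each.

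The other factors that switch on subunit genes did not pass. Nfe2l1 itself was at 194, 201 and 249 in knockouts and 250, 189 and 291 in controls, with a change of −0.15 ± 0.12 (adjusted p = 0.597). Nfe2l2, the antioxidant relative, was at 1113, 1014 and 891 in knockouts and 951, 982 and 944 in controls, with a change of 0.062 ± 0.088 (adjusted p = 0.805). Ngly1, the glycanase that processes Nfe2l1, was at 206, 181 and 149 in knockouts and 263, 267 and 175 in controls, with a change of −0.35 ± 0.11 (adjusted p = 0.213). Of the small Maf genes, Mafk and Mafg were higher in the knockout of each litter without passing, and Maff was not. Mafk was at 133, 128 and 157 in knockouts and 80.6, 85.1 and 115 in controls, a change of 0.52 ± 0.11 (adjusted p = 0.122). Mafg was at 169, 176 and 180 in knockouts and 102, 110 and 162 in controls, a change of 0.47 ± 0.14 (adjusted p = 0.200). Maff was at 80.1, 49.4 and 59.98 in knockouts and 13.3, 25.6 and 69.4 in controls, a change of 0.73 ± 0.33 (adjusted p = 0.381) that was negative in litter C. Without litter C, Mafk and Mafg passed, at 0.57 and 0.63, in the fit that called 8.71% of all genes. Over the 10 measured regulators, 4 changes were above and 6 below 0.

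The 20 measured activators, inhibitors, assembly factors and receptors had a median change of 0.15, 14 above 0, against 0 for all genes, and 0 passed. The 4 with the smallest p were all above 0. Usp14, a deubiquitinase bound to the 19S particle, was at 0.33 ± 0.11 (adjusted p = 0.236) and Uchl5, the other such enzyme, at 0.31 (adjusted p = 0.269). The shuttle receptors Rad23b and Ubqln2 were at 0.36 (adjusted p = 0.246) and 0.20 (adjusted p = 0.354). In litters A and B the first 3 changed by 0.32 to 0.60, and in litter C by 0.035 to 0.086. Usp14, Uchl5, Rad23b and the assembly factor Psmg2 passed without litter C, in the fit that called 8.71% of all genes. Pomp, which guides the maturation of the core, was at 958, 911 and 868 in knockouts and 971, 977 and 1085 in controls. Its groups did not overlap, at −0.15 ± 0.088 (adjusted p = 0.510). Psme1, a subunit of the interferon-induced activator PA28, was at 411, 505 and 593 in knockouts and 516, 520 and 618 in controls, at −0.14 ± 0.093 (adjusted p = 0.560).

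**Figure D4:**
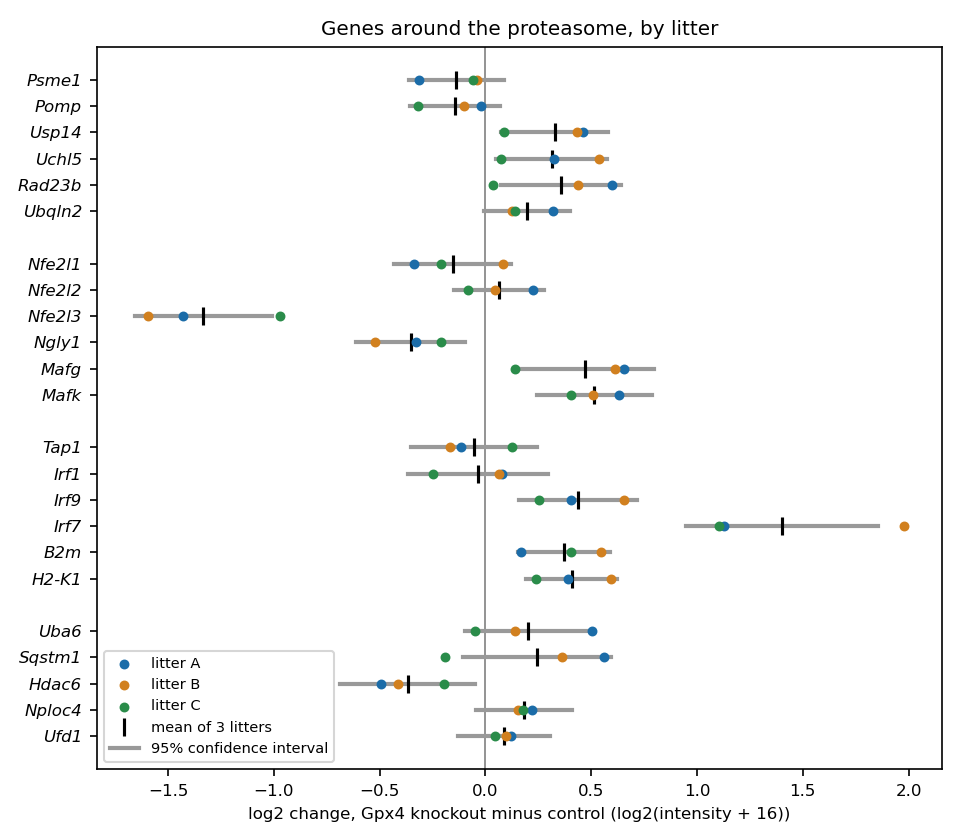
Log2 change (knockout minus control, log2(intensity + 16), horizontal axis) of named genes around the proteasome: activators and receptors, regulators of subunit transcription, antigen processing and interferon, and the ubiquitin and p97 genes, from top to bottom. Points are litters, ticks the means and bars the 95% confidence intervals of limma; Nfe2l3 at −1.33 is the one gene shown that passed the test.

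The genes of antigen processing and the interferon response had a median change of 0.11 over 19 genes, 14 above 0, and 0 passed. Some of them, not all, are induced together with Psmb8, Psmb9 and Psmb10. Irf7, an interferon-induced factor, was at 137, 280.5 and 511 in knockouts and 54.0, 59.4 and 229 in controls. It was higher in the knockout of each litter, by 1.13, 1.98 and 1.10, and missed the threshold at 1.40 ± 0.19 (SE, limma adjusted p = 0.0505). It passed without litter C, with a pseudocount of 1, with arrays shifted to the same median and without dim probe sets. Its adjusted p was 0.343 without the litter block, 0.227 as deposited, 0.217 without litter A and 0.386 without litter B, and 0.066 to 0.118 with a pseudocount of 64, by the mean of its probe sets and without the intensity trend. H2-K1, a class I heavy chain, had a change of 0.41 ± 0.090 (adjusted p = 0.122), B2m, the class I light chain, 0.37 ± 0.090 (adjusted p = 0.148) and Irf9 0.44 ± 0.12 (adjusted p = 0.167), each positive in all 3 litters. H2-K1 and H2-D1, another heavy chain, also passed without litter C, at 0.49 and 0.40, in the fit that called 8.71% of all genes. Tap1, the neighbour of Psmb9, was at 85.1, 82.3 and 108 in knockouts and 93.7, 94.4 and 97.3 in controls, with a change of −0.053 ± 0.12 (adjusted p = 0.893). Irf1, an activator of Psmb9 and Tap1, changed by −0.035 ± 0.14 (adjusted p = 0.941). Irf7, Irf9, H2-K1 and B2m were highest on the litter C array of each genotype, as Psmb8, Psmb9 and Psmb10 were. Psme2, whose probe set carries a second gene symbol, was not analysed here.

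Genes that deliver or gather ubiquitinated protein gave no call. Uba6, an activating enzyme, was at 0.20 ± 0.12 (adjusted p = 0.520). Sqstm1, the p62 receptor of ubiquitinated aggregates and a target of Nfe2l2, was at 1214, 1258 and 929 in knockouts and 817, 974 and 1062 in controls, higher in the knockout in litters A and B and lower in litter C. Its change was 0.25 (adjusted p = 0.50), and it passed without litter C at 0.46, in the fit that called 8.71% of all genes. Hdac6, which carries aggregates along microtubules, was at 54.3, 61.2 and 62.4 in knockouts and 82.9, 86.8 and 73.8 in controls. Its groups did not overlap, at −0.37 ± 0.13 (adjusted p = 0.280). The p97 cofactors Nploc4 and Ufd1 were at 0.18 and 0.088 (adjusted p = 0.434 and 0.714).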

How the data were processed

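Total RNA of 3 knockout and 3 control pools was hybridised to 1-colour Affymetrix arrays, 1 array per pool, with biotin-labelled targets per the labels. The values deposited by the authors are linear intensities of probe sets. Their background correction, probe summary and scaling are not given in the sources used here. Precision is limited by having 3 arrays a group.

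Of 45101 probe sets, 64 control probe sets were left out. After quantile normalization between arrays, log2(intensity + 16) was fitted with limma 3.58.1 (lmFit, then eBayes with trend, R 4.3.3). Litter entered as a block, since the labels give the litter of each pool. Deviations from the group means correlated between the 2 pools of a litter at 0.24 for A, 0.070 for B and 0.27 for C. The p-values are two-sided and were adjusted after Benjamini and Hochberg over all 45037 probe sets, with a threshold of 0.05. Every adjusted p in the text is from limma. Fold changes on this scale understate those of dim genes. The code was tested on 10 simulated data sets with changes placed in 200 probe sets above the median intensity. It found 10.1% of the 2-fold and 62.3% of the 4-fold changes.

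Symbols came from the platform annotation, in which 34945 probe sets had 1 gene. Text was given in full to Psmb5 to Psmb10, to the highest and lowest gene of each class and, in each list, to up to 4 genes with the smallest p and to 9 regulators and partners. Psmd1, Psmd4, Psmd8, Psmd12, the assembly chaperones, Psma8, Psmb11 and Psmc3ip were added after their values were seen. So were the further probe sets of Psmb1, Psmc4, Psmc6 and Psmd6. The members and lists were chosen with earlier results of these data known. Of 66 related genes, 10 were not matched and are not used. Alternatives changed the block, scaling, pseudocount, dim-probe filter, probe set rule and trend, and left out each litter.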

Additional observations from a re-analysis of the deposited data

How the results depend on the processing

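Proteasome genes gave 0 calls under every alternative except without litter C, where Psmc6 passed, so this count ran from 0 to 1. Without the replicate block, litters unpaired, 135 probe sets and 0 related genes passed. Counts of called probe sets were 35 as deposited, 710 with arrays shifted to the same median, 601 and 59 with pseudocounts of 1 and 64, 1136 without the 40% dimmest probe sets, 6 without the intensity trend, and 0 to 2773 when a litter was left out (3 without litter A, 0 without B, 2773 without C; at an unadjusted p under 0.05, 3700 without B). Of the calls, 71 of 189 were higher in knockouts, against 3 of 35 as deposited and 198 of 710 after the median shift. Related genes passing were 0 as deposited, with a pseudocount of 64, by the mean of a gene's probe sets and without the trend, 2 after the median shift and with a pseudocount of 1, 4 without dim probe sets, and 0 to 11 when a litter was left out. The 11 passed without litter C, where 8.71% of all genes did. The constitutive median was −0.16 as deposited and −0.098 after the median shift, and −0.022 to 0.061 when a litter was left out. The contrast of immunoproteasome genes with their counterparts was 0.059 to 0.32 when a litter was left out.

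Signs of single genes were followed for 52 of the named genes, and proteasome genes outside them also turned: of 31 constitutive genes, 18 were above 0 in the reported fit, 1 as deposited, 4 after the median shift, 21 by the mean over probe sets, and 12, 13 and 22 without litters A, B and C. Among the genes followed, those that turned sign, none of which had passed the test, were, as deposited, Psmb5 −0.14, Psmb6 −0.16, Psmb7 −0.14, Psmb9 −0.068, Psmb10 −0.023, Psma1 −0.042, Psmb2 −0.16, Psmd14 −0.011, Psmd12 −0.083, Psmd9 −0.027, Psmd5 −0.18, Nfe2l2 −0.11, Nploc4 −0.014 and Ufd1 −0.11. After the median shift they were Psmb5 −0.082, Psmb6 −0.10, Psmb7 −0.080, Psmb9 −0.0090, Psmb2 −0.10, Psmd12 −0.023, Psmd5 −0.12, Nfe2l2 −0.052 and Ufd1 −0.055. By the mean of a gene's probe sets they were Psmb1 0.10, Psmd4 0.017, Psmd9 −0.037 and Ubqln2 −0.047. Leaving out a litter in turn, the followed genes whose sign turned ranged as follows: Irf1 −0.092 to 0.071, Nfe2l2 −0.018 to 0.14, Psma8 −0.060 to 0.15, Psmb11 −0.11 to 0.35, Psmb2 −0.018 to 0.11, Psmb5 −0.042 to 0.12, Psmb6 −0.087 to 0.14, Psmb7 −0.10 to 0.22, Psmb9 −0.0068 to 0.23, Psmc3ip −0.15 to 0.024, Psmd4 −0.10 to 0.15, Psmd5 −0.00098 to 0.048, Psmd8 −0.24 to 0.16 and Tap1 −0.14 to 0.0039. Nfe2l3 stayed between −1.52 and −1.04 under the alternatives that ended its call (adjusted p 0.052 to 0.386). Gpx4 also lost its call as deposited, without the trend, by the mean of its probe sets and without litter A or B, at −1.34 to −1.14. Krt10 lost its call as deposited, without the trend and without litter A or B, at −1.61 to −1.38 (adjusted p 0.062 to 0.179). The causes of these changes were not tested. Signals near the array floor limit Psmb9, Psma8 and Psmb11.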
